A study of Mus musculus with 6 samples.

Results

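Glucocorticoids act on fat through the glucocorticoid receptor, a nuclear receptor that rests in the cytosol in a complex with heat shock proteins and moves to the nucleus once it has bound its hormone. In adipose tissue the active hormone comes from the circulation and from the local enzyme Hsd11b1, which regenerates it from its inactive form, and the receptor then raises a well-known set of genes that is often read as a gauge of its activity. The 10 genes described here are the receptor gene Nr3c1, the activating enzyme gene Hsd11b1 and 8 genes that glucocorticoids are known to induce, namely Zbtb16, Fkbp5, Tsc22d3, Per1, Klf9, Map3k6, Sgk1 and Mt2. They were selected on textbook roles and with the measured log2 differences of these arrays already known, out of 19938 genes with a probe set of their own. The probe set of each gene was chosen by its mean intensity over all 6 arrays. Each of the 10 had 1 probe set with that gene symbol alone and 0 that it shared with another gene and therefore left no choice, and all 10 were bright enough to be tested.

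The RNA came from visceral fat of male C57BL6/J mice, the epididymal white adipose tissue (eWAT). The animals were placed on a high-fat diet (HFD) at an age of 6 weeks and kept on it for 12 weeks. A recombinant adeno-associated virus (rAAV) of serotype Rec2 had been injected into both fat pads after the diet had begun, and it carried either Lmo3, a LIM-domain cofactor of transcription, or yellow fluorescent protein (YFP) as the control. Both transgenes were driven by the chicken beta-actin promoter with a CMV enhancer, which is not limited to adipocytes. The rAAV-YFP and rAAV-Lmo3 groups held 3 Affymetrix arrays apiece. The RNA on an array was a pool from 2 mice, so that differences between single mice cannot be seen. The treatment field of the labels names rAAV-LacZ as control, whereas the sample titles name rAAV-YFP, which is used here.

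Values are intensities that the authors summarised per probe set with RMA, a method that equalises the distribution of values between arrays. Median intensities lay between 123 and 127.5. Arrays rAAV-YFP 2 and rAAV-Lmo3 1 correlated least with the rest (mean r of 0.988 and 0.986, and 0.990 to 0.991 for the other 4 arrays). The same arrays had the lowest scores, that is mean centred log2 levels, for 10 macrophage markers, at -0.68 and -0.40, where the other 4 arrays lay between 0.02 and 0.44. Defining adipocyte markers were bright on all 6 arrays, with Adipoq between 8014 and 10809. Of the 7 epididymis and testis markers on the array, 6 were too dim to be tested. The other, Prm1, varied widely within the groups, with 439, 248 and 360 in rAAV-YFP and 564, 142 and 524 in rAAV-Lmo3. Whether some of the RNA came from such tissue was not tested. The probe set of Lmo3 itself read 25, 24 and 24 in the controls and 24, 26 and 24 after rAAV-Lmo3, far below the limit of 114 for dim genes, and gave no check of the group labels.

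Most of the induced glucocorticoid target genes lay lower in rAAV-Lmo3 eWAT, while the receptor gene did not. Of the 8 target genes, 6 had log2 differences (rAAV-Lmo3 minus rAAV-YFP) between -1.01 for Zbtb16 and -0.48 for Klf9, which are 2.02-fold and 1.39-fold lower levels. Mt2 differed by -0.29 ± 0.17 (SE, n = 3 pools per group), Sgk1 by 0.10 ± 0.14, Hsd11b1 by -0.32 ± 0.25 and Nr3c1 by 0.09 ± 0.21. The median over the 10 genes was -0.50, beside 0.000763 over all 11963 genes tested. None of these differences passed the test over all genes (limma with Benjamini-Hochberg adjustment), with adjusted p-values of 0.970 to 0.987 for the 10 genes and a smallest adjusted p of 0.669 for any gene, so that none is called a change. Because the arrays were hybridized with RNA of whole tissue, fewer cells of a type and less RNA per cell cannot be told apart.

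**Figure D1:**
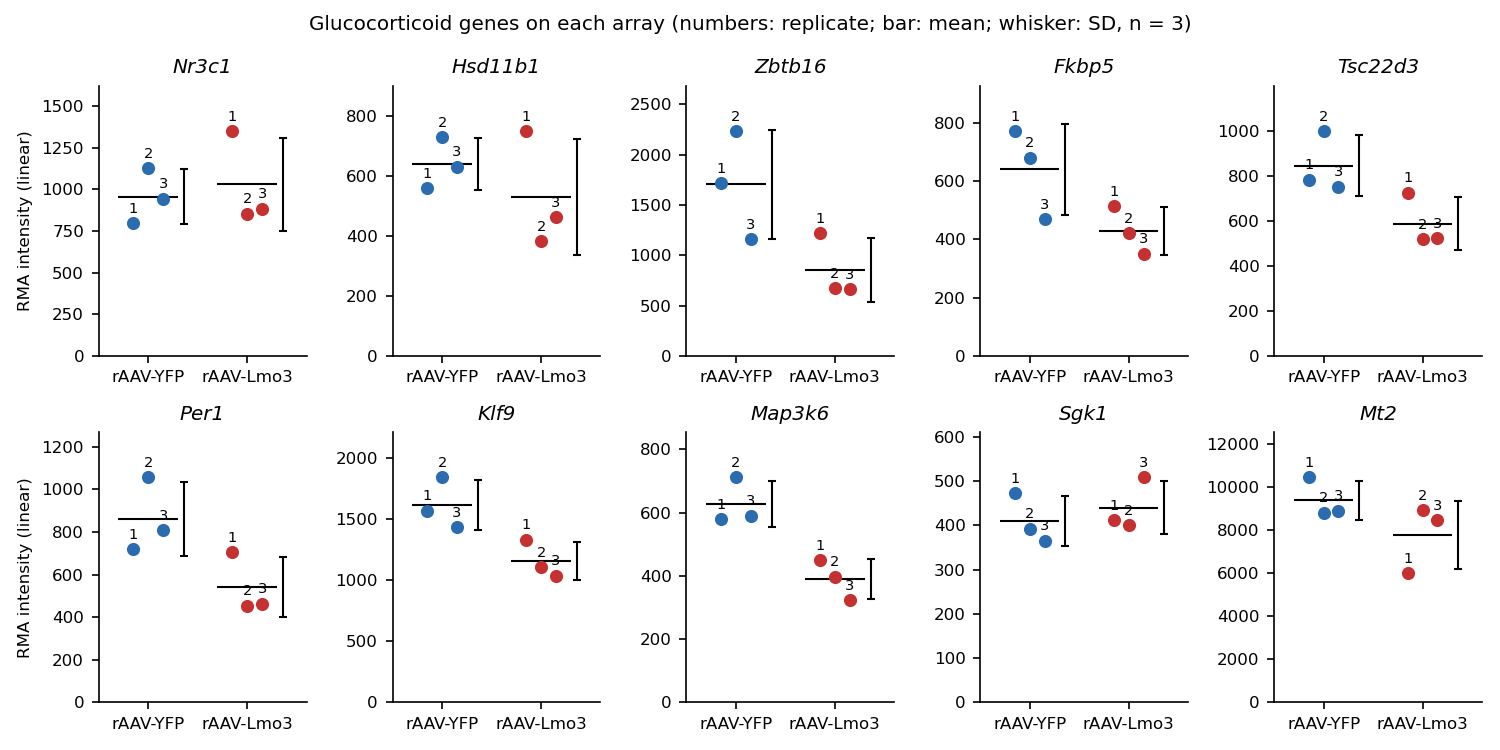
RMA intensity on the linear scale (vertical axis, from 0) of the 10 glucocorticoid genes on each of 3 rAAV-YFP (blue) and 3 rAAV-Lmo3 (red) arrays, numbered by replicate, with the group mean (bar) and SD (whisker, n = 3). The groups do not overlap for Tsc22d3, Per1, Klf9 and Map3k6, and the values of Nr3c1 and Hsd11b1 are highest on array rAAV-Lmo3 1.

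Of the 10 genes 6, all of them targets, were lower at an unadjusted p under 0.05 by limma (Zbtb16, Fkbp5, Tsc22d3, Per1, Klf9 and Map3k6), and 0 were higher. Over all genes tested 2.4% were lower and 2.27% higher at this level, or 4.66% in either direction. The groups did not overlap for 4 of the 10 genes, all lower in rAAV-Lmo3, where 5.95% of all genes were lower and 4.53% higher without overlap. These counts describe the genes and are not support for them, since the genes were named with results of this comparison known. By the methods' t-test (equal variances) 2 of the 10 genes, Klf9 and Map3k6, were lower at the unadjusted level, beside 2.69% of all genes, and 0 genes of the whole table after adjustment. The count of 6 also fell to 2, again Klf9 and Map3k6, when rAAV-YFP 2, rAAV-Lmo3 2 or rAAV-Lmo3 3 was left out, when 1.18%, 2.05% and 1.17% of all genes were lower at this level. The direction of all 6 genes held without any single array.

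Nr3c1, the receptor, read intensities of 795, 1127 and 944 on rAAV-YFP arrays 1 to 3 and 1350, 854 and 883 on rAAV-Lmo3 arrays 1 to 3. The groups overlapped, and the highest value of each group was on the array that stood apart from the rest. The 95% interval of its log2 difference ran from -0.41 to 0.59 and so held moderate differences in either direction. Without rAAV-Lmo3 1 the difference was -0.12 and without rAAV-YFP 2 it was 0.22.

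Hsd11b1, which regenerates active glucocorticoid inside the cell, read 558, 728 and 630 in rAAV-YFP and 749, 382 and 461 in rAAV-Lmo3 tissue. It was highest on rAAV-Lmo3 1 and lowest on the other rAAV-Lmo3 arrays, which lay below every control. Its log2 difference of -0.32 ± 0.25 became -0.60 without rAAV-Lmo3 1, and -0.50 ± 0.12 without both arrays that stood apart. In both of these settings, and with array weights (-0.50), it was lower at an unadjusted p under 0.05, though not after adjustment by limma. Of all genes, 2.31%, 1.84% and 3.13% were lower at this level in these settings. Both of the settings with arrays left out removed rAAV-Lmo3 1, its highest array. With all arrays at equal weight its unadjusted p by limma was 0.24. Nr3c1 and Hsd11b1 were thus highest in each group on the arrays with the lowest macrophage scores and the highest adipocyte scores of their groups (0.15 on rAAV-YFP 2 and 0.12 on rAAV-Lmo3 1). Skeletal muscle markers, of which 4 were tested, also scored highest there, at 0.51 on rAAV-YFP 2 and 0.26 on rAAV-Lmo3 1. Their scores on the other arrays lay between -0.31 and -0.09. The part of cell composition in the values of Nr3c1 and Hsd11b1 was not tested.

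Of the induced genes, Zbtb16 showed the widest spread and the largest difference. This zinc-finger transcription factor, also called PLZF, is strongly induced by glucocorticoids in many cell types. Its intensities were 1713, 2234 and 1161 in rAAV-YFP and 1219, 674 and 660 in rAAV-Lmo3. The lowest control lay just below the highest rAAV-Lmo3 array, so the groups overlapped, while the other rAAV-Lmo3 arrays lay far below every control. The log2 means were 10.68 ± 0.47 and 9.67 ± 0.50 (SD, n = 3), and the difference of -1.01 ± 0.32 (SE) was the lowest but 4 among the 11963 genes. When single arrays were left out it ranged from -1.30 (without rAAV-Lmo3 1) to -0.79 (without rAAV-YFP 2).

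Fkbp5, a co-chaperone that lowers the hormone affinity of the receptor and so forms a feedback loop with it, read 772, 680 and 469 in rAAV-YFP and 513, 422 and 351 in rAAV-Lmo3. The groups overlapped through rAAV-YFP 3, which lay below rAAV-Lmo3 1. The log2 difference was -0.57 ± 0.22, with a range of -0.77 (without rAAV-YFP 3) to -0.42 (without rAAV-YFP 1). Tsc22d3, known as GILZ, carries part of the anti-inflammatory action of glucocorticoids, and it read 783, 999 and 752 in rAAV-YFP and 724, 518 and 522 in rAAV-Lmo3. All 3 rAAV-Lmo3 arrays lay below all controls, although rAAV-Lmo3 1 came close to them, and the difference was -0.53 ± 0.17.

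Klf9, a Krüppel-like transcription factor that glucocorticoids induce directly, differed in the same direction with every array of a group on 1 side. Its intensities were 1564, 1837 and 1432 in rAAV-YFP and 1328, 1105 and 1034 in rAAV-Lmo3, which did not overlap. The log2 difference was -0.48 ± 0.13 and stayed between -0.58 and -0.38 when single arrays were left out. Without any one of the 6 arrays it remained lower at an unadjusted p under 0.05, beside 1.17% to 2.83% of all genes.

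Per1, a repressor of the circadian clock that responds to glucocorticoids as well as to the clock itself, read 719, 1056 and 808 in rAAV-YFP and 704, 455 and 463 in rAAV-Lmo3. The groups did not overlap, but rAAV-Lmo3 1 was separated from rAAV-YFP 1 by only a small gap. The difference was -0.68 ± 0.21. The promoter window of Per1 is shown because it holds the E-box CACGTG, the letters through which the clock drives its targets, in capitals. It covers chr11:69098699-69098998 (GRCm38.p6, plus strand, RefSeq), which runs from 250 bases before to 50 bases after an annotated start, and the E-box begins 166 bases before that start. The other annotated window of Per1 held none.
Per1: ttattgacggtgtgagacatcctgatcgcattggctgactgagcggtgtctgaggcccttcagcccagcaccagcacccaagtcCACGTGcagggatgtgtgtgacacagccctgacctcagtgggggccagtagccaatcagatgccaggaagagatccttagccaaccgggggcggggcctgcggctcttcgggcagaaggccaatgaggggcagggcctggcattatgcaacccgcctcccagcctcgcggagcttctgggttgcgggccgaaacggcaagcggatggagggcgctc
The E-box reads the same on both strands and was found in 7.15% of 32851 such windows in the mouse annotation, among them the Fkbp5 window and the Sgk1 window printed with another motif in capitals.

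Map3k6, also called ASK2, is a stress-activated kinase of the MAP kinase cascade and a known glucocorticoid target. It read 580, 711 and 590 in rAAV-YFP and 449, 397 and 323 in rAAV-Lmo3, with the widest gap between the groups of the 4 genes without overlap. The log2 difference of -0.69 ± 0.15 had a 95% interval of -1.04 to -0.35 and ranged from -0.80 to -0.56 when single arrays were left out. It was lower at an unadjusted p under 0.05 in each of these settings, where 1.17% to 2.83% of all genes were lower.

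Sgk1, a kinase of ion transport and cell survival that glucocorticoids and mineralocorticoids induce, did not lie lower. It read 473, 392 and 365 in rAAV-YFP and 411, 400 and 508 in rAAV-Lmo3, with widely overlapping groups and the highest value on rAAV-Lmo3 3. The difference was 0.10 ± 0.14, and -0.01 without rAAV-Lmo3 3. Its 95% interval of -0.23 to 0.43 lay above the differences of the 6 lower genes. The 95% intervals of Fkbp5, Tsc22d3, Klf9 and Per1 reached into it, and those of Zbtb16 and Map3k6 did not. Whether Sgk1 differed from these genes was not tested.

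The promoter windows of Map3k6 and Sgk1 are shown together because they hold the letters of a glucocorticoid response element (GRE), the site that a receptor dimer binds. The full palindrome was searched as AGAACA and TGTTCT with any 3 bases between them, and the relaxed form, which lies inside the full one, as GNACA and TGTNC with any 3 bases between them. Both read the same on either strand. The windows cover chr4:133240568-133240867 for Map3k6 and chr10:21993640-21993939 for Sgk1 (GRCm38.p6, both plus strand, RefSeq). Capitals mark the relaxed form in Map3k6, which begins 181 bases before the start, and the full form in Sgk1, which begins 189 bases before that start.
Map3k6: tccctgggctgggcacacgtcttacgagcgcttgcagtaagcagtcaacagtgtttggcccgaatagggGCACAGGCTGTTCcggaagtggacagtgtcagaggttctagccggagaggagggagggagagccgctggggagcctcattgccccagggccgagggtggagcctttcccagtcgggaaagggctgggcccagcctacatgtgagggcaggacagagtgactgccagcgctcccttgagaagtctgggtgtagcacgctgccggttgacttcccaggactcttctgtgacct
Sgk1: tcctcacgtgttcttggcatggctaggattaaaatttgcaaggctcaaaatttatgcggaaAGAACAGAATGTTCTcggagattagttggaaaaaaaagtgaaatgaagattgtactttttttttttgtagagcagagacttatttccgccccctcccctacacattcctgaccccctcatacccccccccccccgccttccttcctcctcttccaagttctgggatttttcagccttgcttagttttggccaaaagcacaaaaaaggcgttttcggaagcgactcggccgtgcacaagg
The full form occurred in 3 of 32851 windows, or 0.00913%, and the relaxed form in 0.475%. The Sgk1 window is 1 of 6 that the annotation gives for this gene, and the others held neither form. In all, 8 of the 10 genes had windows (16 windows), and those of Hsd11b1, Fkbp5, Klf9, Tsc22d3, Per1 and Mt2 held neither form. A match describes letters and not a bound site, and glucocorticoid receptor sites often lie farther away than these windows reach. No window was used here for Nr3c1 and Zbtb16.

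Mt2, a metallothionein that binds zinc and copper and responds to metals as well as to glucocorticoids, read 10438, 8807 and 8893 in rAAV-YFP and 5987, 8932 and 8450 in rAAV-Lmo3. The groups overlapped, and the lower mean of rAAV-Lmo3 rested on array rAAV-Lmo3 1, without which the difference fell from -0.29 to -0.11. Its window (chr8:94172368-94172667, GRCm38.p6, plus strand, RefSeq) is shown for the letters TGCNCNC, in capitals on either strand. These are a looser form of the metal response element, whose core takes only A or G at the first N.
Mt2: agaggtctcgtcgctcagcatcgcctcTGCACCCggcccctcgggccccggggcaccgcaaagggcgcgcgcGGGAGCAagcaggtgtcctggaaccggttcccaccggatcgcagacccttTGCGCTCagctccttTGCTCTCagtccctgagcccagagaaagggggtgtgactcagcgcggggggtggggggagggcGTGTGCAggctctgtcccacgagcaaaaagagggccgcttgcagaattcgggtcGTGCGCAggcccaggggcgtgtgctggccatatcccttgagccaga
It held 6 such matches, where 51% of all windows held at least 1 and 0.225% held 6 or more. Of the 6, GGGAGCA and TGCTCTC match the looser form only, and the strict form was not searched. Mt1, which lies beside Mt2 in the genome and resembles it closely, read 10847, 9804 and 9401 in rAAV-YFP and 7962, 9573 and 9411 in rAAV-Lmo3, again lowest on rAAV-Lmo3 1. Whether the probe sets of the metallothioneins share signal was not tested.

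**Figure D2:**
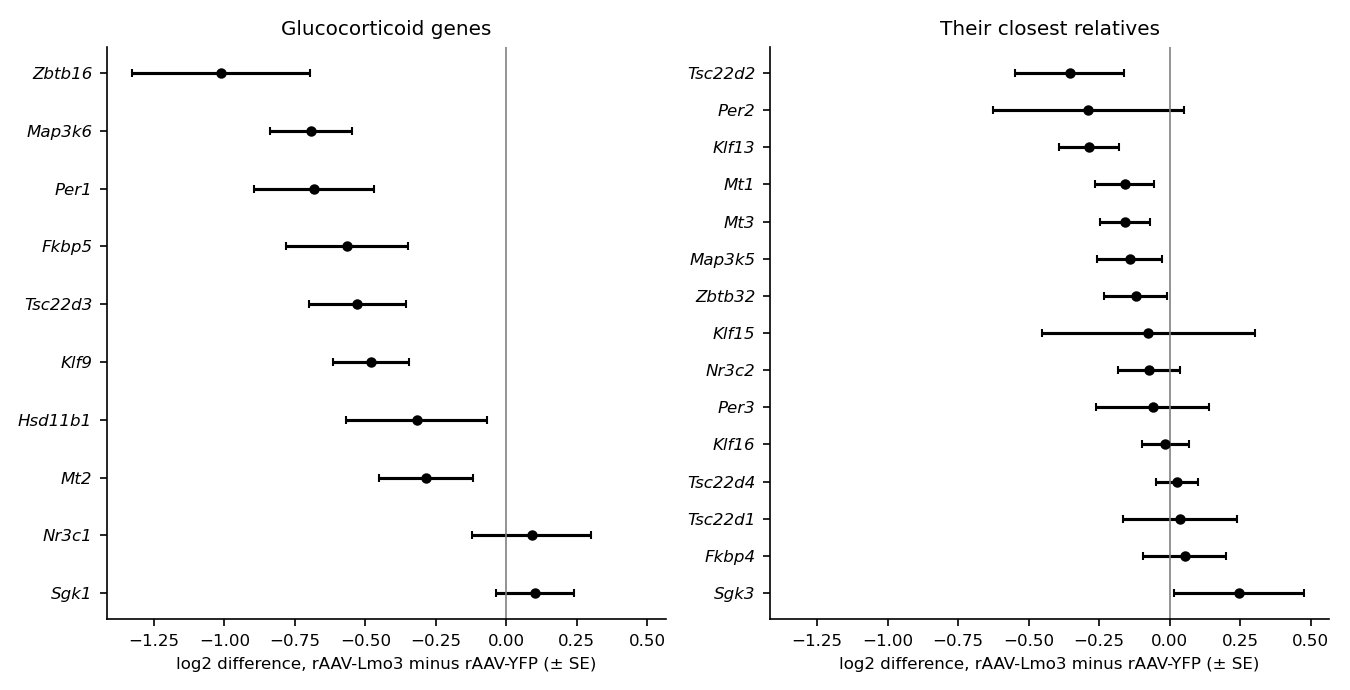
Log2 difference, rAAV-Lmo3 minus rAAV-YFP (horizontal axis, points ± SE, n = 3 per group), of the 10 glucocorticoid genes and of 15 tested relatives. The 6 lowest genes on the left run from -1.01 to -0.48, and the relatives on the right run from -0.35 for Tsc22d2 to 0.25 for Sgk3.

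The relatives of these genes, which share their protein family but are in part not glucocorticoid targets, were set beside them. Of 18 listed relatives 15 were bright enough to test, 11 lay below 0 and 4 above, with a median log2 difference of -0.08. At an unadjusted p under 0.05, 1 of the 15 was lower, beside 2.4% of all genes. This was Klf13, the relative of Klf9, with a difference of -0.29 ± 0.11. Its groups did not overlap, which held for 1 of the 15, beside 5.95% of all genes. Beside Per1, the clock repressors Per2 and Per3 differed by -0.29 ± 0.34 and -0.06 ± 0.20. Fkbp4, the co-chaperone that helps the receptor into the nucleus, differed by 0.05 ± 0.15, where Fkbp5 had -0.57. Map3k5 (ASK1), the partner of Map3k6, differed by -0.14 ± 0.12. Among the relatives of Tsc22d3, Tsc22d1 differed by 0.04 ± 0.20, Tsc22d2 by -0.35 ± 0.19 and Tsc22d4 by 0.03 ± 0.07. Nr3c2, the mineralocorticoid receptor, differed by -0.07 ± 0.11, and Hsd11b2, which inactivates glucocorticoid, was too dim to test with intensities of 90 to 96. Whether a gene differed more than its relative was not tested.

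Of the other parts of the receptor complex, 12 further genes (the chaperones, the co-chaperones and Nr3c2) were tested, of which 4 lay below 0 and 8 above (median 0.05) and 0 were lower or higher at an unadjusted p under 0.05. The smallest p among them belonged to Hspa8 (-0.12 ± 0.09), Ppid (-0.10 ± 0.09) and Stip1 (0.13 ± 0.12), all of which are chaperones or co-chaperones of the receptor. Of 5 further tested genes of glucocorticoid activation, inactivation and transport, H6pd, which supplies the reducing power for Hsd11b1, had the smallest p, with intensities of 1769, 2395 and 2007 in rAAV-YFP and 1823, 1697 and 1532 in rAAV-Lmo3. The difference was -0.28 ± 0.13, and the groups overlapped through rAAV-Lmo3 1 and rAAV-YFP 1. The carbonyl reductase Cbr1 differed by 0.24 ± 0.11 and the transporter Abcb1a, which exports glucocorticoids, by -0.23 ± 0.13. None of the 5 reached an unadjusted p under 0.05.

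Of the 13 coregulators through which the receptor acts, 11 lay below 0 by small amounts, with a median of -0.11, beside 49.7% of all genes below 0. At the unadjusted level 1 of the 13 was lower, beside 2.4% of all genes, and 0 higher. This was Ncoa2, a p160 coactivator that binds the glucocorticoid receptor. It read 696, 738 and 650 in rAAV-YFP and 626, 591 and 585 in rAAV-Lmo3, without overlap, a difference of -0.21 ± 0.08. The arginine methyltransferase Carm1 differed by -0.22 ± 0.09, also without overlap, while Ppargc1a, a coactivator of mitochondrial genes, differed by 0.45 ± 0.25 with overlapping groups. The groups did not overlap for 3 of the 13, all lower, beside 5.95% of all genes.

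A longer list of genes that glucocorticoids are known to induce was described in the same way. Of 42 listed genes 37 were tested, and 28 lay below 0 (75.7%, beside 49.7% of all genes) and 9 above. Their median was -0.16. At an unadjusted p under 0.05, 2 of the 37 (Foxo1 and Mertk) were lower, beside 2.4% of all genes, and 0 higher. The groups did not overlap for 4 of the 37, all lower, beside 5.95% of all genes. Foxo1, a transcription factor of fasting metabolism, read 745, 957 and 815 in rAAV-YFP and 730, 677 and 625 in rAAV-Lmo3, a difference of -0.30 ± 0.12. Mertk, a receptor through which macrophages take up dying cells, differed by -0.27 ± 0.10, and Foxo3 by -0.18 ± 0.08, and the groups overlapped for none of these 3 genes. The median of the list depended on rAAV-YFP 2, without which it was -0.05. The count below 0 fell from 28 to 23 without rAAV-YFP 2, and likewise without rAAV-Lmo3 2. On the single arrays the mean centred log2 level of the list was 0.02, 0.10 and -0.02 in rAAV-YFP. It was 0.04, -0.11 and -0.03 in rAAV-Lmo3, so the groups overlapped. Genes that glucocorticoids repress in inflammation, of which 9 were tested, lay on both sides with 4 below and 5 above 0 and a median of 0.04, among them Tnf (0.18 ± 0.10), Ccl2 (-0.32 ± 0.18) and Cxcl1 (0.14 ± 0.10).

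Several of the target genes also answer to other signals, whose further genes were described in the same way. Of the circadian clock genes other than Per1, 5 of 13 lay below 0, with a median of 0.01, and Dbp (0.31 ± 0.18), Nfil3 (0.30 ± 0.19) and Nr1d1 (-0.21 ± 0.20) had the smallest p among them. Immediate early genes, which rise within minutes of handling or stress, lay below 0 in 5 of 15 cases with a median of 0.07. At an unadjusted p under 0.05, 1 of the 15 was lower, beside 2.4% of all genes, and 0 higher. This was the antiproliferative factor Btg2, which read 494, 574 and 557 in rAAV-YFP and 393, 427 and 418 in rAAV-Lmo3 (-0.39 ± 0.09). Ier2 differed by 0.20 ± 0.12 and Ier3 by 0.27 ± 0.17. Zinc and metal response genes other than Mt2 had a median near 0 with 3 of 7 below it, and Mt1 (-0.16 ± 0.11), Slc39a14 (-0.21 ± 0.15) and Slc39a10 (0.15 ± 0.16) had the smallest p. None of the genes in any of these lists passed after adjustment over all genes.

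**Figure D3:**
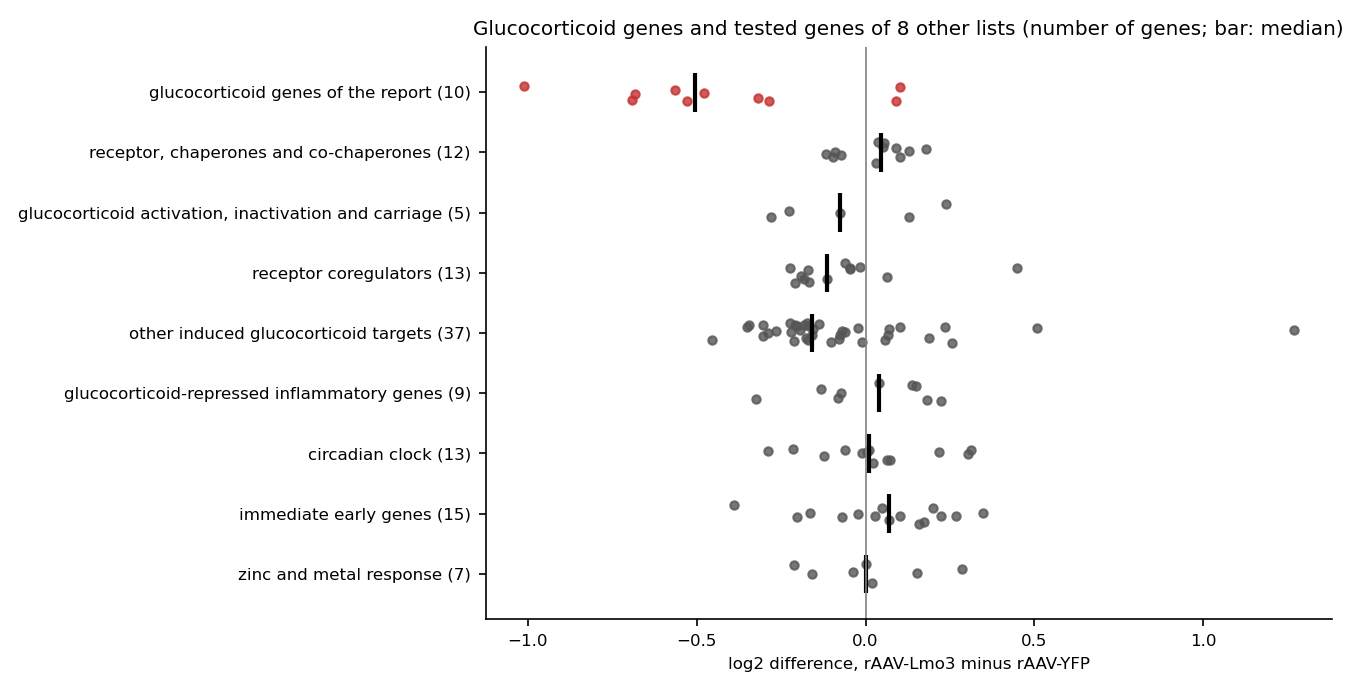
Log2 difference, rAAV-Lmo3 minus rAAV-YFP (horizontal axis), of the 10 glucocorticoid genes (red) and of the tested genes of 8 other lists (grey, 1 point per gene, black bar the median, number of genes in brackets). The median is -0.50 for the 10 genes and -0.16 for the other induced targets, whose highest point is the acute phase gene Lcn2 at 1.27, named after its value was seen.

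Across the arrays, 6 of the target genes followed each other closely. In all 6 of them the lowest arrays were rAAV-Lmo3 2 and 3, and rAAV-Lmo3 1 was the highest of its group. That rAAV-Lmo3 1 was the highest of its group held for 8 of the 10 genes, Nr3c1 and Hsd11b1 among them. In 5 of the 6 target genes rAAV-YFP 2 was the highest of all arrays, Fkbp5 being the exception. The 6 are those lower at the unadjusted level, and the share of all genes with this order was not counted. The mean centred log2 level of the 8 target genes was 0.29, 0.43 and 0.06 in the controls and -0.06, -0.33 and -0.38 after rAAV-Lmo3. Since the 8 were chosen with their differences known, the gap between the groups is no separate result. Over the 6 arrays, which share the difference between the groups, Pearson's r of a gene with the mean of the other targets was between 0.89 (Per1 and Fkbp5) and 0.99 (Klf9) for these 6 genes, and -0.35 for Sgk1 and 0.19 for Mt2. For Hsd11b1 it was 0.70 and for Nr3c1 0.19.

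**Figure D4:**
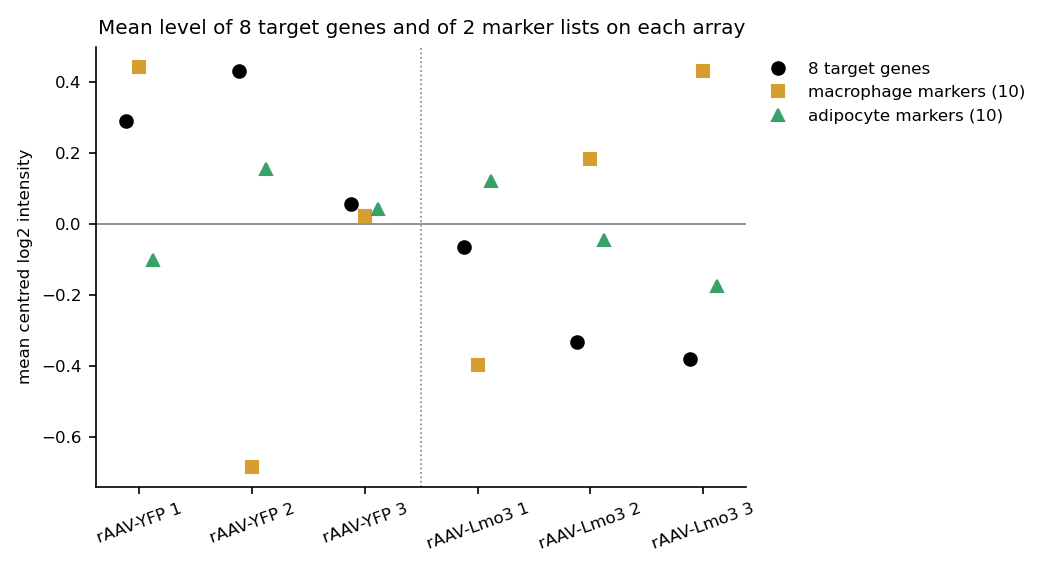
Mean centred log2 intensity (vertical axis) of the 8 target genes (black), of 10 macrophage markers (yellow) and of 10 adipocyte markers (green) on each array (horizontal axis, dotted line between the groups). The target genes lie between 0.06 and 0.43 on the rAAV-YFP arrays and between -0.38 and -0.06 on the rAAV-Lmo3 arrays. They were chosen with their differences known, so that this gap is no separate result. The marker lists overlap between the groups.

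The macrophage markers did not separate the groups, since their scores were 0.44, -0.68 and 0.02 in rAAV-YFP and -0.40, 0.18 and 0.43 in rAAV-Lmo3, with 9 of 10 markers above 0 in the comparison. Adgre1, which encodes the macrophage marker F4/80, read 718 on rAAV-YFP 2 and 1032 on rAAV-Lmo3 1 and between 1453 and 2520 on the other arrays. The adipocyte marker scores were -0.10, 0.15 and 0.04 in rAAV-YFP and 0.12, -0.04 and -0.17 in rAAV-Lmo3. All 5 tested mesothelial markers lay below 0, with a median of -0.37 and a highest score of 0.91 on rAAV-YFP 3, an array on which Zbtb16, Fkbp5, Tsc22d3, Klf9 and Sgk1 were lowest among the controls. Of the T and B cell markers, 2 were bright enough to test. Cd3e was lower at an unadjusted p under 0.05 (-0.42 ± 0.17), beside 2.4% of all genes. Of the other cell types, 0 markers reached this level. All 5 tested markers of smooth muscle and pericytes lay below 0, as did 6 of 7 endothelial and 8 of 10 adipocyte markers, beside 49.7% of all genes. The medians were small, at -0.12, -0.05 and -0.04. Rgs5 (-0.37 ± 0.19), Cdh5 (-0.33 ± 0.14) and Pecam1 (-0.23 ± 0.11) were the lowest of the muscle and endothelial lists. Other markers of these lists lay near 0, such as Myh11 (-0.04 ± 0.20), Kdr (-0.01 ± 0.20) and Vwf (-0.02 ± 0.12). The part of these cell types in the lower target genes was not tested.

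With both arrays that stood apart left out, the differences of the 6 target genes were -1.08 ± 0.18 for Zbtb16, -0.73 ± 0.09 for Per1, -0.71 ± 0.12 for Map3k6, -0.64 ± 0.24 for Fkbp5, -0.56 ± 0.08 for Tsc22d3 and -0.49 ± 0.09 for Klf9 (SE, n = 2 per group). Nr3c1 then differed by 0.00345 ± 0.11. Set against each other, these arrays gave the same direction, since rAAV-Lmo3 1 lay below rAAV-YFP 2 in 7 of the 8 target genes, beside 46.8% of all genes, with log2 differences from -0.87 for Zbtb16 to -0.41 for Fkbp5 among the 6. This last comparison has 1 array per side and no test. Both arrays also entered the differences that were known when the genes were chosen, so the count is no separate support.

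**Figure D5:**
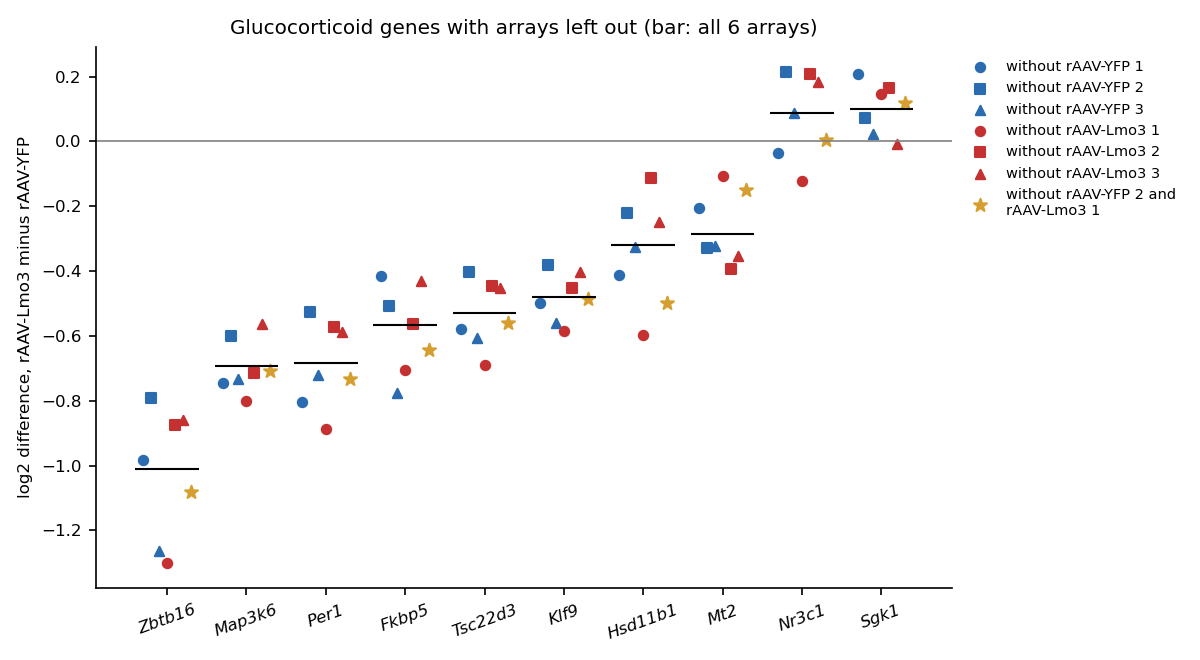
Log2 difference, rAAV-Lmo3 minus rAAV-YFP (vertical axis), of each glucocorticoid gene with all 6 arrays (bar), without single rAAV-YFP (blue) or rAAV-Lmo3 (red) arrays, and without rAAV-YFP 2 and rAAV-Lmo3 1 together (star). For 6 target genes, and for Hsd11b1 and Mt2, every point lies below 0, whereas points of Nr3c1 run from -0.12 to 0.22 and those of Sgk1 from -0.01 to 0.21.

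The 5 genes outside the 10 whose pattern over the 6 arrays was most like that of the target mean had Pearson's r between 0.98 and 1.00. They were Cramp1l, the coactivator Ncoa2, the tyrosine kinase Abl1, the transcription kinase Cdk12 and Garre1. Garre1 had the largest difference of these, -0.34 ± 0.12, and read 1168, 1267 and 971 in rAAV-YFP and 974, 856 and 852 in rAAV-Lmo3. The others differed by -0.21 to -0.08 with groups that did not overlap, beside 5.95% of all genes lower without overlap. The target mean itself separated the groups, so a gene picked for its likeness to that mean tends to separate them too. The separation is therefore no separate result. The unadjusted p by limma was 0.060 for Cramp1l, 0.18 for Abl1 and 0.32 for Cdk12, and under 0.05 for Ncoa2 and Garre1. These genes were taken as the highest among all genes tested over 6 arrays, and the values describe these arrays alone.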

How the data were processed

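Labelled eWAT RNA was measured on Affymetrix mouse Gene 1.0 ST arrays (1 array per pool of 2 mice, 3 pools per group, groups and replicate numbers from the labels). The deposited intensity values had been summarised per probe set by the authors with RMA in Affymetrix Expression Console 1.1 and rounded to whole numbers on the linear scale. Log2 was taken here. Arrays give no counts, so their number limits the precision. Of 35556 probe sets, 21789 carried exactly 1 gene symbol. Where a gene had several, the brightest by its mean was kept (19938 genes), the dimmest 40% of genes were left out, and the other 11963 genes entered a linear model (limma 3.58.1, R 4.3.3: lmFit and eBayes, two-sided, Benjamini-Hochberg over all genes, threshold 0.05). Since the labels describe the replicates as pools, the error in every test is that between pools. The steps were tested on simulated data.

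The 10 genes and all lists were chosen with earlier results of these data known, and no test over a list was made. Named are the 10 genes, their relatives, the 3 genes with the smallest p of each pathway list, the 5 genes with the most similar pattern, Lmo3, and cell type markers. Mertk and Foxo1 fall under this rule. Lcn2 was named after its value was seen. Promoter windows (GRCm38.p6) came from RefSeq. Replicate numbers were not used to pair the arrays in the main model. The alternatives were centring on the median, a second quantile normalization, array weights, a trend and robust prior, a replicate block, other filters on dim genes (none, or 60% left out), the mean over probe sets, the methods' t-test and leaving out arrays.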

Additional observations from a re-analysis of the deposited data

How the results depend on the processing

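Over the alternatives with limma, 15 in all, Zbtb16, Fkbp5, Tsc22d3, Per1, Klf9, Map3k6, Hsd11b1 and Mt2 kept a difference below 0, and none of the 10 genes passed after adjustment. Klf9 and Map3k6 were lower at an unadjusted p under 0.05 in all 15, Zbtb16, Tsc22d3 and Per1 in 12, Fkbp5 in 11 and Hsd11b1, which did not reach this level with all arrays at equal weight, in 3. Of all genes, 1.17% to 3.13% were lower at this level in these settings. The settings reuse the same arrays, so these counts are no separate support. Nr3c1 changed sign with array weights (-0.023), without rAAV-YFP 1 (-0.036) and without rAAV-Lmo3 1 (-0.12), and Sgk1 without rAAV-Lmo3 3 (-0.0073), and the cause was not tested. When single arrays were left out Nr3c1 reached at most 0.22 and Sgk1 at most 0.21. The count of the 10 genes that were lower at the unadjusted level was 2 by the methods' t-test instead of 6, and between 2 and 7 when single arrays were left out. The median of the other induced targets ranged from -0.167 to -0.0478 in those settings. Over all genes, 287 were lower and 271 higher at the unadjusted level. Without a filter on dim genes, when 19938 genes were tested, 458 were lower. When single arrays were left out, between 140 and 339 were lower and between 122 and 404 higher, the lowest counts coming without rAAV-Lmo3 3 and without rAAV-YFP 2. The count after adjustment was 0 by limma in each of these settings and by the methods' t-test. The deviations of same-numbered arrays from their group means correlated at -0.55, -0.40 and 0.26. These 3 values differ in sign and cannot settle whether same-numbered pools were handled together, which the labels do not state. With the replicate block, 237 of all genes were lower and 216 higher at the unadjusted level, and the count among the 10 genes was 6. Centring each array on its median moved the median of all genes by 0.01.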
